A study of Mus musculus with 4 samples.

Results

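Collagens are the main structural proteins of the extracellular matrix, and the genes for their chains were followed here in mouse otocysts taken at E10.5. An otocyst is a closed sac of epithelium from which the inner ear forms. The members were all genes whose array name is Col, a number, a and a number, which gave 41 collagen genes with 61 probes of 31693 genes or targets with 39429 probes. Of them, 30 were measured well enough to be tested, of 18415 genes tested. By the type of collagen they fell into 9 fibrillar genes (types 1, 2, 3, 5 and 11), 8 genes of basement membrane collagens (types 4, 15 and 18), 3 genes of the cartilage collagen type 9 and 21 others.

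The mutant embryos, named Tbx2/3cDKO, carried Pax2-cre together with Tbx2(fl/fl) and Tbx3(fl/fl). There a cre recombinase driven by Pax2 sequences, active in the otic region, removes floxed parts of Tbx2 and Tbx3, which encode T-box transcription factors. Controls were Tbx2(fl/?);Tbx3(fl/?), with floxed alleles and no cre in the label. Both were of the NMRI strain. Each of 4 arrays, replicates 1 to 4, compared 1 mutant with 1 control RNA, both female on replicates 1 and 2 and both male on replicates 3 and 4, with the mutant in red on replicates 1 and 3 and in green on replicates 2 and 4. Values are log2 ratios of mutant over control, so 0 is no difference, above 0 is higher in the mutant, and 0.58 is about 1.5-fold. A gene was called when the p of limma, adjusted by Benjamini-Hochberg over all genes tested, was under 0.05. The labels do not say whether RNAs came from separate embryos or pools, and the p-values cover no more than the spread between these RNAs, which may be technical.

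A collagen molecule is built of 3 chains wound into a triple helix, which requires a glycine at regular steps of 3 residues. Fibrillar collagens line up into the fibres of connective tissue and cartilage and are made mostly by mesenchymal and cartilage cells. Collagen 4 forms the sheet-like network of the basement membrane under every epithelium and around blood vessels. Other types decorate fibrils, span membranes, or anchor epithelia to the tissue below. In the developing ear, type 2, 9 and 11 collagens are made by otic epithelium and by the mesenchyme that forms the cartilage capsule, and later form part of the tectorial membrane over the hair cells.

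The probes show this repeat where they lie in the helix. They are 60 bases long. In 4 of the 61 collagen probes an open frame held at least 4 pairs of glycine codons exactly 3 codons apart, 1 of them on a probe that passed the filter on dim signals. The following probes are shown because they show what defines the family, with the glycine codons of the repeat in capitals (mm9, forward strand).
Col14a1, chr15:55347733-55347792: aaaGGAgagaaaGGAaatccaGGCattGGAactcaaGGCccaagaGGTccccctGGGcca
Col25a1, chr3:130270497-130270556: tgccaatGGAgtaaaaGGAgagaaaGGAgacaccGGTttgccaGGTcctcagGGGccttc
Col15a1, chr4:47283786-47283845: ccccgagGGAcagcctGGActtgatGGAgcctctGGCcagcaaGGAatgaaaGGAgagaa
The Col14a1 probe, which has 1 break in the repeat, read a log2 ratio of 0.18 ± 0.12 (SD, n = 4 arrays). The Col25a1 and Col15a1 probes shown were too dim to be tested.

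The collagen genes moved in both directions. Of the 30 tested, 10 were higher in the mutant, where 13.5% of all genes tested were called higher, and 5 were lower, where 10.1% were called lower. The remaining 15 were not called. The median log2 ratio was 0.10 over the collagens and 0.00 over all genes tested. The collagen median was 0.05 without replicate 2 and 0.20 without replicate 4. At 1.5-fold or more, the calls were Col3a1 and Col8a2 among the higher (2 of 30, against 3.35% of all genes) and Col5a3, Col9a3 and Col4a6 among the lower (3 of 30, against 1.92%). The ratio was above 0 on all 4 arrays for 12 collagens (21.6% of all genes) and below 0 on all 4 for 6 (19.9%). In level, all 4 mutant RNAs lay above all 4 controls for 10 collagens (13.2% of all genes) and below them for 6 (10.1%), which were the 15 called genes and Col18a1.

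By class, 4 fibrillar genes were higher and 1 lower of 9, with a median of 0.22. The 4 became 2 without replicate 1 and 7 without replicate 4. Among basement membrane collagens 1 was higher and 1 lower of 5 tested, with a median of 0.06. Of the 3 type 9 genes 1 was lower, with a median of 0.09. The other types had 5 higher and 2 lower of 13 tested, with a median of 0.09. Within that last class, the fibril-associated types 12, 14, 16, 19, 20 and 22 had 3 higher of 5 tested and a median of 0.29. Type 6 had 0 higher and 1 lower of 2 (median -0.15). The fibril-like types 24 and 27, counted in this last class by the rule, had 0 higher and 0 lower of 2 (0.01). The fibrillar count and median above leave them out. The membrane-spanning types 13, 17, 23 and 25 had 1 higher of 2 (0.17). Types 8 and 10 had 1 tested, which was higher (0.64), and types 7 and 28 had 1 tested, which was lower (-0.56). No class was tested against another.

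**Figure D1:**
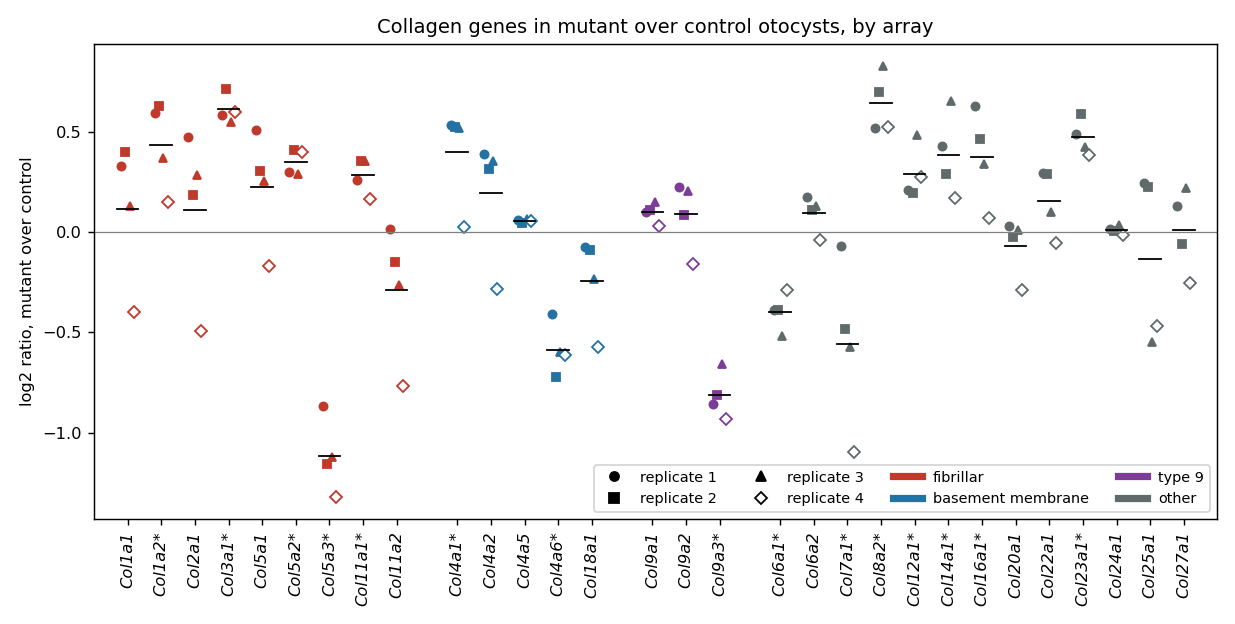
Log2 ratio of mutant over control (vertical axis) of each of the 30 tested collagen genes on each of the 4 arrays, by class; black bars are the fitted mean ratio, open diamonds are replicate 4, and an asterisk marks genes called by limma. Col5a3, Col9a3, Col4a6 and Col6a1 lie below 0 on every array, and the open diamond is the lowest of the 4 points in 22 of 30 genes.

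Among the fibrillar genes, Col3a1 and Col5a2 gave the most even rise. Col3a1, whose product forms fibrils in stretchable tissues such as vessel walls, had log2 ratios of 0.58, 0.71, 0.55 and 0.60 on replicates 1 to 4. The arrays were tightly grouped, and the normalised log2 level was 16.19 to 16.34 in the mutant RNAs and 15.52 to 15.74 in the controls, with no overlap. The mean was 0.61 ± 0.07 (SD, n = 4), or 1.53-fold higher (limma SE 0.05, adjusted p = 0.000313). Col5a2, a chain of the collagen that starts fibrils and limits their width, had 0.30, 0.41, 0.29 and 0.40, all above 0. Its mean was 0.35 ± 0.06 (limma adjusted p = 0.00257). Col3a1 and Col5a2 are neighbours on chromosome 1, 24624 bases apart in the GRCm38.p6 assembly of RefSeq.

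Type 1 collagen, the main fibre of connective tissue, combines Col1a1 and Col1a2 chains. Col1a2 had 0.59, 0.63, 0.37 and 0.15, above 0 on every array and smallest on replicate 4. Its mean was 0.44 ± 0.22 (limma adjusted p = 0.0124, and 0.0721 without replicate 1). Col1a1 had 0.33, 0.40, 0.13 and -0.40, so the sign turned on replicate 4, and at 0.11 ± 0.36 it was not called (limma adjusted p = 0.570). Col1a1 lay below Col1a2 on all 4 arrays, by 0.32 ± 0.15.

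Col2a1, the fibril collagen of cartilage and of the otic capsule, gave 0.47, 0.19, 0.28 and -0.50, with a mean of 0.11 ± 0.42 (limma adjusted p = 0.524). Only replicate 4 was below 0, and without it the ratio was 0.28 with an adjusted p of 0.0209. Col11a1, which joins type 2 fibrils and controls their diameter, had 0.26, 0.35, 0.35 and 0.16. It was above 0 on every array, with a mean of 0.28 ± 0.09 (limma adjusted p = 0.0121, and 0.0504 without replicate 1 and 0.0873 without replicate 3). Its partner chain Col11a2 had 0.02, -0.15, -0.26 and -0.77 and was not called, at -0.29 ± 0.34 (limma adjusted p = 0.0978).

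Col5a3, a further type 5 chain with a narrower distribution than the other type 5 chains, was the lowest of all 30 collagens. It had -0.87, -1.16, -1.12 and -1.32. Every array was well below 0, and the level was 7.38 to 7.75 in the mutant and 8.53 to 8.70 in the control. The mean of -1.12 ± 0.19 (SD, n = 4) is 2.17-fold lower (limma SE 0.06, adjusted p = 7.59e-05). The size depended on the processing: over the 15 alternatives given at the end, the ratio ranged from -1.66 to -1.05 and was called in each. The main type 5 chain, Col5a1, had 0.51, 0.30, 0.25 and -0.17 and was not called at 0.22 ± 0.29 (limma adjusted p = 0.122). Col5a3 lay below Col5a1 by 1.34 on the log2 scale (a difference of -1.34 ± 0.13) and below Col5a2 by 1.47 (-1.47 ± 0.24), on all 4 arrays. The probe is on chromosome 9 (mm9, 20574592 to 20574651).

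The type 9 genes encode the chains of a short collagen that coats type 2 fibrils, and their products assemble as a heterotrimer of all 3 chains. Col9a3 had -0.86, -0.81, -0.66 and -0.93, with levels of 8.68 to 8.85 in the mutant and 9.43 to 9.70 in the control. No mutant level reached a control level. The mean was -0.81 ± 0.12 (SD, n = 4), or 1.76-fold lower (limma SE 0.06, adjusted p = 0.000172). Col9a1 had 0.10, 0.11, 0.15 and 0.03, a mean of 0.10 ± 0.05 that was not called (limma adjusted p = 0.215). Col9a2 had 0.23, 0.08, 0.20 and -0.16, a mean of 0.09 ± 0.18 (limma adjusted p = 0.345). The probe of Col9a3 lies on chromosome 2 (mm9, 180356123 to 180356182).

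Type 9 therefore split by chain. On each array Col9a3 was below Col9a1, by 0.81 to 0.96 on the log2 scale (differences of -0.81 to -0.96, mean -0.91 ± 0.07), and below Col9a2 (mean -0.90 ± 0.13). The 5 called genes with a current symbol whose 4 ratios lay nearest to those of Col9a3, by Euclidean distance, were Sowahb (distance 0.14), Epo (0.17), Cdx1 (0.17), Apcdd1 (0.19) and Tmem82 (0.19). With 4 arrays of 1 contrast this closeness describes the size of the ratio and no more.

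Collagen 4 comes in 3 kinds of trimer. Col4a1 and Col4a2 together make the network found in nearly every basement membrane. Col4a5 and Col4a6 together make a trimer of a few epithelia and of smooth muscle, and Col4a3 and Col4a4 join Col4a5 in kidney and cochlea. Each pair of genes lies head to head in the genome. Col4a1 had 0.54, 0.53, 0.52 and 0.03, the first 3 arrays close together and replicate 4 apart. Its mean was 0.40 ± 0.25 (SD, n = 4; limma SE 0.08, adjusted p = 0.0148). The call was lost without replicate 1 (adjusted p = 0.0695) and without replicate 3 (0.0685).

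Col4a2 had 0.39, 0.31, 0.35 and -0.28, the same pattern at a lower size. It was not called at 0.19 ± 0.32 (limma adjusted p = 0.204), and without replicate 4 it was 0.34 with an adjusted p of 0.00541. For Col4a1 the control level was 13.74 on replicate 4 and 13.24 to 13.36 on the other arrays, while the mutant level was 13.77 there and 13.77 to 13.90 on the others. Col4a2 was below Col4a1 on all 4 arrays, by 0.21 ± 0.07 (difference -0.21).

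The start regions of this pair overlap. RefSeq windows of 300 bases, which run from upstream of the start site to 50 bases after it, are shown 5′ to 3′ on the strand of each gene (GRCm38.p6) because both genes are read from this stretch. The 78 bases in capitals are held by both windows, in opposite orientation, and the start sites are 21 bases apart.
Col4a1, minus strand, chr8:11312777-11313076: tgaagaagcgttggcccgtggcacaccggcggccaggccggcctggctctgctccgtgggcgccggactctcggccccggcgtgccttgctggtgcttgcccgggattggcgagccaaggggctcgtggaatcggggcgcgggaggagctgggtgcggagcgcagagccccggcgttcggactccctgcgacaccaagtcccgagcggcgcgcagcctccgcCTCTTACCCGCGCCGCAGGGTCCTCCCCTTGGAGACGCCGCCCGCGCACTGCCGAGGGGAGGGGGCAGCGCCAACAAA
Col4a2, plus strand, chr8:11312555-11312854: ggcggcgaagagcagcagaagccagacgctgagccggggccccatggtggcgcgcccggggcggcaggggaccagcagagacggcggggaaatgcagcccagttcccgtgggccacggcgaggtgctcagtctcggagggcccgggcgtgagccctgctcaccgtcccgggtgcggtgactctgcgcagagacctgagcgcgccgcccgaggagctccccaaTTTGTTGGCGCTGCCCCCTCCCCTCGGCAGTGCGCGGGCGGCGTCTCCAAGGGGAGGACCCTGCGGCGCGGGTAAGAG

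Col4a6 was the basement membrane gene that fell. It had -0.41, -0.72, -0.60 and -0.61 on the 4 arrays, with levels of 9.13 to 9.59 in the mutant and from 9.76 upwards in the control. The groups did not overlap, and the mean of -0.59 ± 0.13 (SD, n = 4) is 1.5-fold lower (limma SE 0.06, adjusted p = 0.000576). A second, dimmer probe of Col4a6 read -0.17 ± 0.12 (limma adjusted p = 0.0496 over all kept probes), and the mean of both probes was -0.38. Col4a5 had 0.06, 0.05, 0.07 and 0.06 and was not called (limma adjusted p = 0.454). Its arrays differed by less than 0.02, and Col4a6 was below it on each, by 0.64 ± 0.13 (difference -0.64).

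The pair shares a region on the X chromosome, with start sites 1343 bases apart. The windows are shown because these neighbours gave different ratios, with every CG in capitals (GRCm38.p6, 5′ to 3′ on the strand of each gene). The Col4a5 window holds 11 and the Col4a6 window 3 CG dinucleotides. Of the other collagens called lower, the windows of Col5a3, Col7a1 and Col6a1 hold 20, 12 and 3. A link between these counts and the ratios was not tested.
Col4a6, minus strand, chrX:141474027-141474326: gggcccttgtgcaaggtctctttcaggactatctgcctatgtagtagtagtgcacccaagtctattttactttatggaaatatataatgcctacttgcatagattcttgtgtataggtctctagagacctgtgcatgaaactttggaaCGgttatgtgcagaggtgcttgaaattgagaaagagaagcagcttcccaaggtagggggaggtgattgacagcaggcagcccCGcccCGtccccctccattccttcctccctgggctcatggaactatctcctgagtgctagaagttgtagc
Col4a5, plus strand, chrX:141475169-141475468: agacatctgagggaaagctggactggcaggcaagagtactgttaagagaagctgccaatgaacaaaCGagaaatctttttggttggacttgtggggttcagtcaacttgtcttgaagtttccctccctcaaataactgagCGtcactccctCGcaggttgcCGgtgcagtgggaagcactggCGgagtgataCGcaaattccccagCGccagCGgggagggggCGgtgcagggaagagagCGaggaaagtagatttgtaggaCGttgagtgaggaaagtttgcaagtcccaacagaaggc

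Tbx2 and Tbx3 bind a T-box sequence, so 2 spellings were counted on both strands of these windows. The letters AGGTGTGA (reverse TCACACCT) were in 1.28% of 32851 windows of all genes and in 0 of 36 collagen windows, which belong to 33 of the 41 genes. The shorter GGTGTG (reverse CACACC), which lies within the longer spelling, was in 19% of all windows and in 9 of the 36. Col9a3, Col5a2, Col12a1 and Col14a1, which were called, had no window, nor did Col1a1, Col2a1, Col4a3 and Col22a1, so these genes were not scanned. Among tested collagens the windows with the shorter spelling belonged to Col4a1 and Col6a1, which were called, and to Col9a1, Col11a2 and Col24a1, which were not. In the Col4a1 sequence above it is the run cacacc near the upstream end.

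Col18a1, whose product is a heparan sulfate proteoglycan of basement membranes and the source of endostatin, had -0.08, -0.09, -0.23 and -0.57. It was below 0 on all 4 arrays but was not called at -0.24 ± 0.23 (limma adjusted p = 0.0876), and a second probe read -0.15 ± 0.25. Col15a1, Col4a3 and Col4a4 were too dim to be tested: the best probe of each was well above background on at most 2 arrays, that of Col4a4 in the mutant channel.

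Among the other types, Col8a2, which forms the hexagonal network under the corneal endothelium, had the highest ratio of the 30 tested members. Its ratios were 0.52, 0.70, 0.83 and 0.52, with levels of 9.56 to 10.07 in the mutant and 9.04 to 9.33 in the control. The mean was 0.64 ± 0.15 (SD, n = 4), or 1.56-fold higher (limma SE 0.07, adjusted p = 0.000898). Col23a1, a membrane-spanning collagen, had 0.49, 0.59, 0.42 and 0.39 (mean 0.47 ± 0.09, limma adjusted p = 0.00141), and its other 2 kept probes read 0.45 and 0.25. All 3 probes were called higher.

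The fibril-associated collagens that rose sit on the surface of type 1 or type 2 fibrils. Col14a1 had 0.43, 0.29, 0.65 and 0.17 (mean 0.39 ± 0.21, limma adjusted p = 0.00412). Its probe in the helix, shown above, was lower at 0.18 and not called (adjusted p = 0.0969). Col16a1 had 0.63, 0.46, 0.34 and 0.07 (mean 0.38 ± 0.24, limma adjusted p = 0.0180), while a second, dimmer probe read 0.09 and was not called (adjusted p = 0.271). Averaged over both probes, Col16a1 was 0.23 (adjusted p = 0.0379), and without replicate 1 it was not called (adjusted p = 0.102). Col12a1 had 0.21, 0.20, 0.48 and 0.28 (mean 0.29 ± 0.13, limma adjusted p = 0.0159, and 0.108 without replicate 3).

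Col7a1 and Col6a1 fell. Col7a1, the anchoring fibril that ties squamous epithelia to the tissue below, had -0.07, -0.48, -0.57 and -1.10, a wide range that stayed below 0. Its mean was -0.56 ± 0.42 (SD, n = 4; limma SE 0.12, adjusted p = 0.0164, and 0.0860 without replicate 3). Col6a1, a chain of the beaded microfibrils around cells, had -0.39, -0.39, -0.52 and -0.29 (mean -0.40 ± 0.09, limma adjusted p = 0.00225). Its neighbour on chromosome 10, Col6a2, which joins it in the same trimer, had 0.17, 0.11, 0.13 and -0.04 (mean 0.09 ± 0.09, limma adjusted p = 0.264). Col6a1 lay below Col6a2 on each array, by 0.49 ± 0.17.

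Col20a1, Col22a1, Col24a1, Col25a1 and Col27a1 were tested and not called, with means from -0.14 (Col25a1) to 0.16 (Col22a1). Besides the dim basement membrane genes, Col6a4, Col6a6, Col8a1, Col10a1, Col13a1, Col17a1, Col19a1 and Col28a1 were not tested, and their probes were well above background on at most 1 array. All 30 collagens tested passed the filter in both genotypes. Probes of collagens that carry another name in the files lay outside the naming rule. Of these Col26a1 (listed as Emid2) had 0.65 ± 0.10 (limma adjusted p = 0.000413 over all kept probes), and a type 6 alpha 3 probe had -0.14 ± 0.15 (adjusted p = 0.118).

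**Figure D2:**
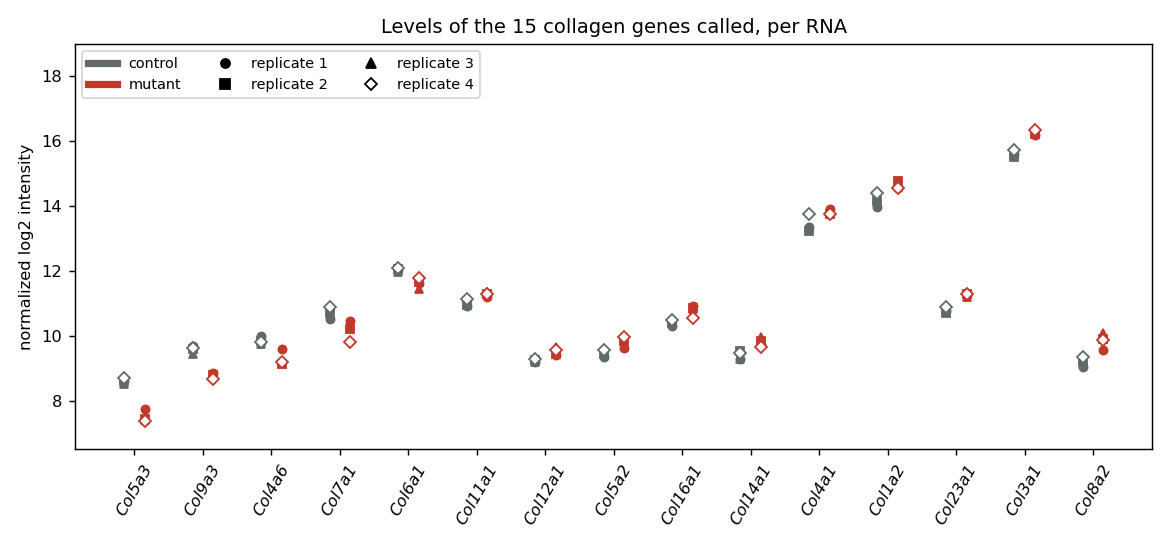
Normalised log2 intensity (vertical axis) of the 15 called collagen genes in each control RNA (grey) and mutant RNA (red), 1 point per array, ordered by log2 ratio; intensities of different probes cannot be compared. Mutant and control points do not overlap in any of these genes, by a wide gap in Col5a3 (7.38 to 7.75 against 8.53 to 8.70) and a narrow one in Col4a1 (lowest mutant 13.77, highest control 13.74).

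Chains of 1 collagen type were compared array by array in all 15 pairs of tested chains, over 6 types. In 11 pairs the difference of the log2 ratios had 1 sign on all 4 arrays, and in 4 the signs were mixed. Every pair with Col9a3, Col5a3 or Col4a6 was among the 11, with these genes the lower, and the largest mean difference was -1.47 (Col5a3 minus Col5a2). These genes were called lower and lay below 0 on all 4 arrays, so their pairs largely restate those calls. Pairs also share genes, and no share was taken over pairs of other genes. Mixed signs were found for Col9a2 minus Col9a1 (mean -0.01 ± 0.14), Col5a2 minus Col5a1 (0.12 ± 0.33), Col4a5 minus Col4a1 (-0.34 ± 0.25) and Col4a5 minus Col4a2 (-0.14 ± 0.32). An exact two-sided sign-flip test gave p = 0.125 for each of the 11 pairs, the smallest value that 4 arrays allow, and 0.170 adjusted over the 15 pairs, so no pair could pass the threshold.

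**Figure D3:**
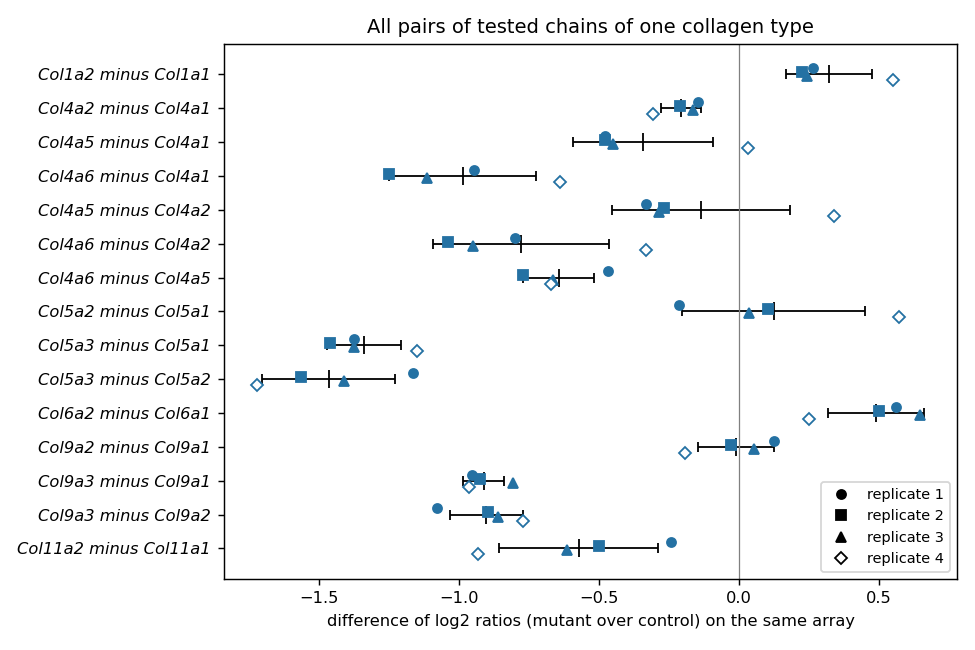
Difference between the log2 ratios (mutant over control) of 2 chains of the same collagen type on the same array (horizontal axis), the higher-numbered chain minus the lower, for all 15 pairs of tested chains; symbols are the 4 arrays, and black bars are the mean ± SD. In 9 pairs all arrays lie below 0, in 2 above it, and in 4 on both sides; Col5a3 minus Col5a2 has the largest mean difference, -1.47.

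Replicate 4 stood apart in the collagens. The median ratio of the 30 genes was 0.23, 0.19 and 0.18 on replicates 1 to 3 and -0.11 on replicate 4, where the median of all genes was 0.01. Replicate 4 had the lowest of the 4 ratios for 22 of 30 collagens, against 29.2% of all genes, and lay below the mean of the other arrays for 27 of 30, against 46.1%. The fibrillar median was 0.33, 0.35 and 0.28 on replicates 1 to 3 and -0.17 on replicate 4. The control RNA of replicate 4 had the highest control level for 24 of 30 collagens, against 27.03% of all genes, and the mutant RNA the lowest mutant level for 13 of 30, against 32.4%.

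Without replicate 4, 15 collagens were called higher in place of 10, and 5 lower, while 2409 of all genes tested were called higher in place of 2485. The added genes were Col1a1 (0.31, adjusted p = 0.0129), Col2a1 (0.28), Col4a2 (0.34), Col5a1 (0.34) and Col22a1 (0.24), all with limma. Other matrix genes differed from each other on that array. Of 10 basement membrane partners 7 had their lowest ratio there, with the lowest value in the perlecan gene Hspg2 (0.65, 0.22, 0.23 and -1.02), but Nid1 had its highest (0.81), and their median there, 0.32, lay just under the 0.33 of replicate 2. Of 9 fibril-binding genes 1 (Fn1, at 0.01) was lowest on replicate 4, and the list median was highest there, at 0.45 against 0.26 to 0.35. The lists of periotic mesenchyme and endothelium markers kept medians of 0.52 and 0.52 on replicate 4, against 0.53 to 0.57 and 0.50 to 0.65 on the others. Otic epithelium markers had their lowest list median there, -0.60 against -0.49 to -0.39. Macrophage markers (0.55) and pericyte and smooth muscle markers (0.35) had their highest.

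**Figure D4:**
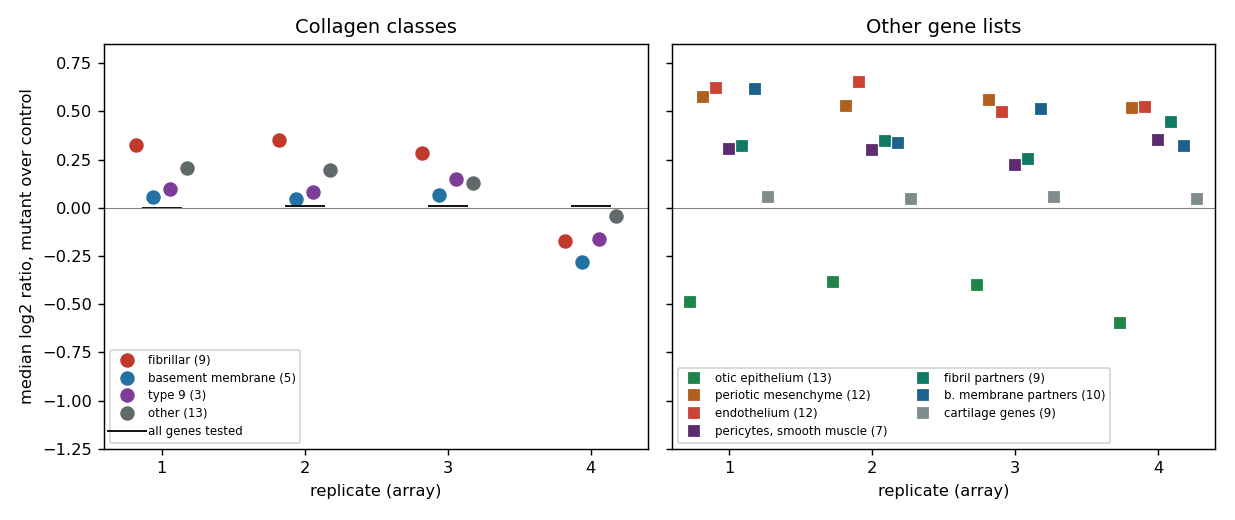
Median log2 ratio of mutant over control (vertical axis) on each array (horizontal axis) for the collagen classes (left, with the number of genes tested) and for lists of partner and cell type marker genes (right); black lines are the median of all genes tested. All 4 collagen classes drop below 0 on replicate 4, to between -0.28 and -0.04, while the mesenchyme and endothelium lists stay near 0.52. The otic epithelium list is at its lowest there, at -0.60.

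No collagen differed between the sexes past the adjusted threshold (0 of 30; 0.0109% of all genes, in a fit with 1 residual degree of freedom). At an unadjusted p under 0.05 there were 10 of 30, against 15.5% of all genes, and replicate 4 is 1 of the 2 male arrays. Col25a1, a membrane-spanning collagen known from amyloid plaques, had the smallest adjusted p, 0.0817. Its ratios were 0.24 and 0.23 on the female arrays and -0.55 and -0.47 on the male arrays, a difference of -0.74 (male minus female), while a second, dimmer kept probe had -0.04, 0.08, -0.01 and -0.10.

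Genes that modify, bind or cut collagen, and genes of cartilage and of the basement membrane that accompany it, were read from lists chosen with earlier results of these data known. Of 69 tested of 86 listed, 29 were higher (13.5% of all genes were) and 4 lower (10.1%), with a median of 0.14. In the list of chain modification, folding and trimming, 9 were higher and 2 lower of 23. Pcolce2, which helps cut the end of the procollagen chain, had 1.10, 1.18, 1.21 and 1.01 (mean 1.13, limma adjusted p = 4.52e-05). P3h4, a partner of prolyl 3-hydroxylase, had 0.72 and P4ha2, a prolyl 4-hydroxylase subunit, 0.40. Serpinh1, the collagen chaperone, was not called at -0.07.

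Of the 4 crosslinking genes tested, the lysyl oxidase gene Loxl2 fell (-0.32, limma adjusted p = 0.00594), and Loxl1 (0.28) and Pxdn (0.27), the peroxidase that crosslinks collagen 4, rose. Among 8 receptor genes 3 rose, with 0 lower: the integrin genes Itga1 (0.74) and Itga11 (0.43) and the kinase gene Ddr2 (0.45). Of 6 genes of collagen breakdown and its inhibitors, Timp3 (0.43) and Mmp2 (0.35) rose. Of 9 fibril-binding genes 6 rose and 0 fell, with a median of 0.38; those with the smallest adjusted p were Thbs1 (0.53), Postn (0.45) and Fn1 (0.51).

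Of the 10 basement membrane partners 6 rose and 0 fell, with a median of 0.40. Lama4, a laminin chain of vessels, had 0.71, 0.76, 0.79 and 0.77 (mean 0.76 ± 0.03, limma adjusted p = 0.000120). The nidogen genes Nid1 and Nid2, which link laminin to collagen 4, had 0.75 and 0.73. In the cartilage list of 9 tested genes, Cnmd (chondromodulin) fell, at -0.86 ± 0.10 (limma adjusted p = 0.000135), and Hapln1, a link protein, rose at 0.37. Sox9, which drives Col2a1, Col9 and Col11 genes in cartilage, had 0.06, -0.12, 0.69 and 0.25 and was not called (limma adjusted p = 0.216).

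Markers of the cells that a dissected otocyst can hold moved beside these genes. Of 13 otic epithelium markers 10 fell and 1 rose (median -0.48), with a mean log2 level over the list of 12.20 to 12.33 in the mutant and 12.75 to 12.88 in the control RNAs. Of 12 periotic mesenchyme markers tested (Osr2 and Tcf21 were too dim) 10 rose and 0 fell (median 0.50, list level 11.03 to 11.06 against 10.42 to 10.48). All 12 endothelium markers rose (median 0.63, list level 11.09 to 11.19 against 10.53 to 10.66). Pericyte and smooth muscle markers had 3 higher and 1 lower of 7 tested (median 0.13, list level 8.82 to 8.92 against 8.55 to 8.67).

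Red blood cell markers were higher for 9 of 9 (median 1.13) and macrophage markers for 7 of 10 (median 0.42). Neural crest and glia markers had 2 higher and 4 lower of 7, and surface ectoderm markers 1 higher of 6. Markers of otic neuroblasts and young neurons had 9 higher and 0 lower of 11 (median 1.05, list level 10.55 to 10.73 against 9.64 to 9.76). Among the higher were Nefm (1.65), Stmn2 (1.56) and Pou4f1 (1.53), while Neurog1 (0.16) and Isl1 (0.14) were not called. The RNA was of whole otocysts, so fewer cells of a type and less RNA per cell cannot be told apart, and the part of these cell types in the collagen ratios was not tested. The list medians of mesenchyme and endothelium were above 0 on all 4 arrays, and the median of the collagens on 3. Of the 30 collagens, 12 were above 0 on all 4 arrays and 6 below 0 on all 4.

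Between 57.3% and 62.1% of probes were well above background in the mutant channel and 57.7% to 60.3% in the control channel, and 0 spots were saturated. Tbx3 fell to a log2 ratio of -3.43 (limma adjusted p = 4.23e-06), and Tbx2 read 0.06. The sources used here do not say which part of Tbx2 the cre removes, and its probe is therefore no check of the deletion.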

How the data were processed

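RNA of E10.5 otocysts was hybridised to 4 Agilent arrays with 2 dyes. The deposited files hold spot and local background intensities from the software Agilent Feature Extraction (version 10.7.3.1, per the submitters' processing notes). The deposited log10 ratios of red over green, and the authors' series values of signed mutant over control ratios, served as alternatives. Its values lay within 0.001 (log2) of the scanner ratios for 90.9% to 93.3% of 39429 probes; the sources used here do not say how the rest were changed.

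Mean signals were background-corrected (normexp, offset 50) and normalised within each array (loess, control spots at weight 0). These steps used limma 3.58.1 (R 4.3.3, statmod 1.5.0, and data.table in version 1.17.8). After this normalization, 21 to 32 spots per array that were marked as not uniform were left out. Probes well above background in the mutant or the control channel of 3 or more arrays were used (23185 probes), and the brightest kept probe stood for its gene. Ratios, turned by the dye labels, were fitted with genotype and dye terms (lmFit, eBayes) and adjusted by Benjamini-Hochberg over 18415 genes. Channel levels are after loess and Aquantile normalization. The SDs printed still hold the dye effect. Sex was an interaction term.

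The members and lists were chosen with earlier results of these data known. The genes named were collagens called or changed 1.5-fold, all of types 1, 2, 4, 9, 11, 15 and 18, collagens whose probes disagree, the 3 partner genes per list with the smallest adjusted p, and the 5 genes nearest to Col9a3; Serpinh1, Sox9, Hspg2, the neuroblast markers, Col6a2, Col5a1, Col26a1 and the type 6 alpha 3 probe were named after their values were seen. On simulated data for this comparison (23185 probes), 100 of 100 probes changed 1.5-fold and 100 of 100 changed 2-fold were recovered, and 8 of 208 calls were unchanged probes. The simulated spread was alike on all arrays and smaller than the median SD of the collagens (0.17) and of all genes tested (0.12). The recovery therefore checks the processing steps and does not give the rate for the collagens. Promoter windows are RefSeq's (GRCm38.p6); probe coordinates are those of the files (mm9). Python 3.11.15 and matplotlib 3.10.9 drew the figures. The alternatives tried changed the background correction, the normalization, the source of the ratio, the filter, the dye term, the probe rule and array weights, left out each array, or fitted the channels separately.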

Additional observations from a re-analysis of the deposited data

Results flagged for a closer look

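On replicate 4, 3 of 30 collagens had a ratio far from those of the other 3 arrays, by Dixon's criterion for 4 values. For normally distributed values the criterion flags about 1 in 20 groups by chance. It was applied to the collagens only, so the share over all genes is not known and the count is descriptive. Col4a1 had 0.0251 there against 0.52 to 0.54, Col4a2 had -0.28 against 0.31 to 0.39, and Col20a1 had -0.29 against -0.02 to 0.03. No collagen met the criterion on another array.

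Col25a1 moved in opposite directions in the 2 sexes, with a male minus female difference of -0.74. The interaction term of limma gave an adjusted p of 0.0817, so the difference did not pass the test.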

How the results depend on the processing

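The count of collagens called higher was 10 in all settings that kept every array, apart from 11 with the channels fitted separately, and that of collagens called lower was 5, apart from 6 with median centring and 7 with separate channels. Leaving out each array moved the higher count between 6 (without replicate 1) and 15 (without replicate 4) and the lower count between 4 and 7. Over all genes tested, 2485 were called higher with every array, and 1669, 2499, 1566 and 2409 without replicates 1, 2, 3 and 4. Those called lower were 1868 with every array, and 1150, 1793, 1034 and 1615. Calls lost without replicate 1 or 3 thus came with fewer calls over all genes. The collagens called lower stayed at 5 without replicate 1, however. Replicate 1 lay below the mean of the other arrays for 6 of 30 collagens, against 52.1% of all genes. Its control RNA had the lowest control level for 16 of 30, against 24.9%. Partner genes called lower fell from 4 to 2 with median centring and ranged from 2 to 7 when an array was left out; those called higher ranged from 21 to 29. Col4a1 and Col11a1 lost their call without replicate 1 (adjusted p = 0.0695 and 0.0504) and without replicate 3 (0.0685 and 0.0873), Col1a2 and Col16a1 without replicate 1, and Col12a1 and Col7a1 without replicate 3. Over the 15 alternatives and 30 genes, 431 values stayed on their side of the threshold, 11 crossed it upwards, 8 lost a call, and 0 changed direction past the threshold. No collagen was called between the sexes with the scanner ratios, without the filter or with the kept probes averaged. With the scanner ratios, 51.8% of all calls were higher, against 57.1%. Probes near background set only a limit for the 11 collagens not tested.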
